A study of Mus musculus with 8 samples.

Results

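The genes described are the cyclin-dependent kinase inhibitors Cdkn1a (p21) and Cdkn1b (p27), the growth arrest and DNA damage genes Gadd45a, Gadd45b and Gadd45g, and the p53 pathway genes Mdm2, Ccng1 and Trp53inp1. They were chosen by name through the platform's gene symbols, and all 8 were on the array, with 19 probes of 25697 and as 8 of 16593 genes. The array was an Illumina mouse bead array, hybridised with total RNA of the tibialis anterior, a mainly fast-twitch muscle of the lower hindlimb. Donors were male mice of the inbred C57BL/6 strain at 8 weeks of age, and muscles were taken 7 days after transfection. The control group was 4 muscles given a control plasmid, and the other group was 4 muscles given a plasmid for spermine oxidase, the Smox product, which oxidises spermine to spermidine with hydrogen peroxide as a by-product. No label names the promoter of the plasmids, the share of fibres transfected, or whether muscles of equal number came from the same mouse, and the spread behind each p-value is that of these samples and may be technical in part.

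Growth arrest genes stop or delay the cell cycle. p21 and p27 bind cyclin and cyclin-dependent kinase complexes and block them, the Gadd45 proteins bind the mitotic kinase CDK1 and activate the kinase MAP3K4 upstream of p38, and the transcription factor p53 drives several of these genes after damage. In skeletal muscle p21 is known for its rise as myoblasts leave the cell cycle, and in mice Gadd45a and p21 are known to rise in denervated muscle. p21 has also been reported to lower Smox mRNA in mouse muscle, which makes the pair of interest when spermine oxidase is raised.

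Promoter sequence upstream of the annotated starts is shown because 4 of the genes share a p53-type motif there. RefSeq's table (build GRCm38.p6) held 8 windows for 7 of the 8 genes, all but Trp53inp1, and the 250 bases before each start were searched. Cdkn1a has a window at each of 2 annotated starts, and the one shown, at chr17:29090729-29090978 on the plus strand, holds a pair of CATG cores set 6 bases apart (motif CATGNNNNNNCATG, which reads the same on both strands; capitals).
Cdkn1a: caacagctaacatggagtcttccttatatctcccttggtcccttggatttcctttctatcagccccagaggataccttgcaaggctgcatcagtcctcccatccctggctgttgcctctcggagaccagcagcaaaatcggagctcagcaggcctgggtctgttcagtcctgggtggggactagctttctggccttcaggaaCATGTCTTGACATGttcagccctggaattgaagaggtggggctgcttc
This motif was present in 0.49% of all 32851 windows of that length, and the match begins 48 bases before the start site. The p53 decamer consensus, the unit of which a p53 response element has a pair, was present in 7.13% of all windows and in windows of Cdkn1a, Gadd45a, Mdm2 and Ccng1. The decamer of Cdkn1a nearest to the start overlaps the CATG pair. The other Cdkn1a window, before the annotated start at position 29093769, held neither motif. The single matches of the other genes are in capitals below, on the minus strand, at chr6:67037413-67037472, chr10:117710910-117710969 and chr11:40755437-40755496.
Gadd45a: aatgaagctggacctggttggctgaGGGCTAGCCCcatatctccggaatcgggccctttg
Mdm2: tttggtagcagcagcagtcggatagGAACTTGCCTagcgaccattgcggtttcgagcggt
Ccng1: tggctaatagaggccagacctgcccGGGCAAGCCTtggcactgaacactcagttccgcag
These matches are letters in the sequence and were not measured as binding sites. The array signals of the genes that carry them are given next, and these genes did not all differ in the same direction.

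All signals are the deposited log2 values of the brightest probe of a gene unless another probe is named, and differences are spermine oxidase minus control with the standard error from limma, a linear model fitted over all genes. Signals have a floor near 8.10 and a median of 8.33 on every array, so differences of dim genes are understated. The muscle identity was checked on 9 fibre markers, none of which was at or below the array median. Smox was higher in every spermine oxidase muscle than in any control muscle on all 5 of its probes, each with an exact two-sided permutation p = 0.0286, the smallest that the 70 splits of 4 against 4 allow. Its brightest probe read 10.78 ± 0.43 in control and 11.94 ± 0.47 in spermine oxidase muscles (SD, n = 4), and limma's adjusted p for it was 0.233. The 3 Smox probes that were dim in control muscles differed more, by 3.30 to 3.44 on the log2 scale. On the brightest probe, control replicate 4 and spermine oxidase replicate 1 lay furthest apart, at 10.17 and 12.58.

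No gene of the 16593, and so 0% of them and none of the 8, passed a Benjamini-Hochberg adjusted p of 0.05 with limma. With an intensity trend and a robust prior in limma 8 genes passed, and 0 of them were growth arrest genes described here. With the replicate number as a block, which no label supports as a pairing, 266 genes passed. Trp53inp1 was the 1 of the 8 among them (limma adjusted p = 0.043). In limma without a trend or a block, 4 of the 8 genes had an unadjusted p under 0.05, where 1833 of all genes, or 11%, did so. Of these, Cdkn1a and Trp53inp1 were lower, as 4.72% of all genes were at that p, and Gadd45b and Ccng1 higher, as 6.33% were. In the direction of the difference, 6 of the 8 were higher and 2 lower, where 50.8% of all genes were lower, with a median difference of 0.094, against a median of -0.0006 over all genes. No direction below is therefore an established change, and values are given for what the muscles read.

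Cdkn1a, the p21 gene, read lower after the spermine oxidase plasmid in 3 of 4 muscles. The control muscles, replicates 1 to 4, read 11.50, 11.25, 11.36 and 11.91. The spermine oxidase muscles read 10.44, 11.34, 10.75 and 11.09. Spermine oxidase replicates 1, 3 and 4 lay below every control muscle, while replicate 2 lay among the controls, above control replicate 2. The group means were 11.50 ± 0.29 and 10.90 ± 0.40 (SD, n = 4), a 1.51-fold lower signal, with a log2 difference of -0.60 ± 0.22, a 95% interval from -1.10 to -0.095 and a limma adjusted p = 0.377. A log2 difference of -0.5 or below was found in 0.331% of all genes. The dimmer Cdkn1a probes differed by less, ILMN_2846775 by -0.41 ± 0.18 and ILMN_2846776 by -0.28 ± 0.16. Without control replicate 4 and spermine oxidase replicate 1, the highest and the lowest muscle, the difference of the brightest probe was -0.31 with an adjusted p = 0.767.

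Cdkn1b, the p27 gene, was not detectably above the floor. Its 3 probes had means of 8.31, 8.24 and 8.21 over the 8 muscles, below the array median. The brightest read 8.35, 8.29, 8.28 and 8.28 in control muscles. It read 8.29, 8.35, 8.33 and 8.27 after spermine oxidase, and the groups overlapped fully. The log2 difference was 0.0095 ± 0.025 with a 95% interval from -0.049 to 0.068, and for a probe at the floor this interval does not bound the change of the mRNA. The other probes had differences of the opposite sign, -0.0069 and -0.011.

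**Figure D1:**
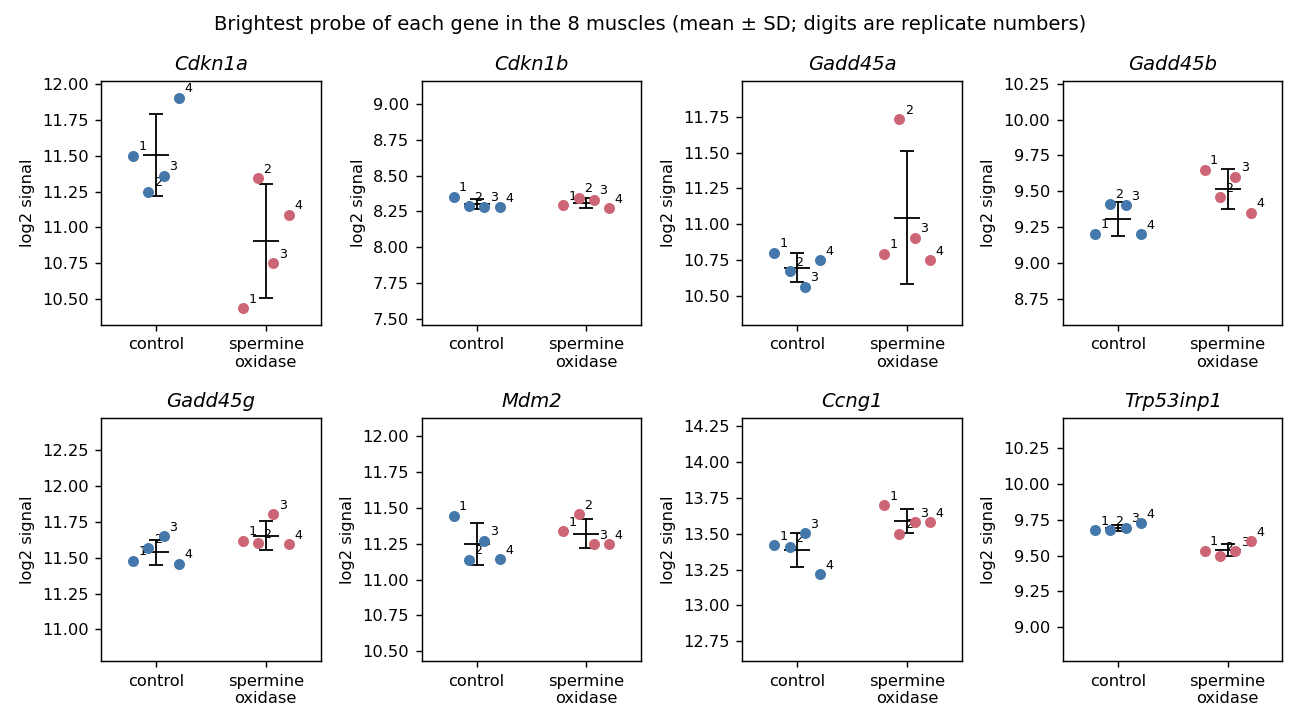
Log2 signal of the brightest probe of each gene (y axis) in 4 control muscles (blue) and 4 spermine oxidase muscles (red), with the mean and SD as black bars and the replicate number beside each point. Cdkn1a lies lower in spermine oxidase replicates 1, 3 and 4, Gadd45a stands out in replicate 2, and Trp53inp1 separates the groups by a small amount.

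The 3 Gadd45 genes all had mean signals that were higher after spermine oxidase, by small amounts and with overlap. Gadd45a, the member induced by the transcription factor ATF4 in atrophying mouse muscle, read 10.80, 10.67, 10.56 and 10.75 in control muscles. After spermine oxidase it read 10.79, 11.73, 10.91 and 10.75. Replicate 2 alone stood clear of the controls by a wide margin, replicate 3 lay just above them, and replicates 1 and 4 lay within the control range. The log2 difference was 0.35 ± 0.21 with a 95% interval from -0.14 to 0.84 and an adjusted p = 0.606, and without spermine oxidase replicate 2 it was 0.12 with an adjusted p = 0.494. The second Gadd45a probe, ILMN_2947568, also had its highest value, 10.75, in that muscle, against 10.16 to 10.25 in the other spermine oxidase muscles and 10.12 to 10.24 in control muscles.

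Gadd45b, a member known for its induction by stress and TGF-beta signals, read 9.20, 9.41, 9.40 and 9.20 in control muscles. It read 9.65, 9.46, 9.60 and 9.35 after spermine oxidase. Spermine oxidase replicates 1, 2 and 3 lay above all controls, and replicate 4 lay between them. The difference was 0.21 ± 0.08 on the log2 scale, 1.16-fold, with a 95% interval from 0.021 to 0.40 and an adjusted p = 0.396, and without control replicate 4 and spermine oxidase replicate 1 it was 0.13. With background subtracted it was 0.35.

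Gadd45g, the last member of the family, read 11.48, 11.57, 11.65 and 11.46 in control muscles. It read 11.62, 11.60, 11.80 and 11.60 after spermine oxidase. Control replicate 3 exceeded all spermine oxidase muscles but replicate 3. The log2 difference was 0.12 ± 0.06 with a 95% interval from -0.023 to 0.26 and an adjusted p = 0.546, and 0.066 without spermine oxidase replicate 3. The dimmer probe ILMN_2744890 gave 0.16 ± 0.07.

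The p53 feedback and effector genes differed in sign. Mdm2, the ubiquitin ligase that removes p53 and is itself a p53 target, read 11.45, 11.14, 11.27 and 11.14 in control muscles. It read 11.34, 11.45, 11.25 and 11.25 after spermine oxidase, with full overlap. The log2 difference was 0.071 ± 0.079 with a 95% interval from -0.11 to 0.25 and an adjusted p = 0.803. It was 0.027 to 0.14 when single muscles were left out, and the dimmer probes gave 0.038 and 0.0034, the last at the floor.

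Ccng1, the p53 target cyclin G1, which brings a phosphatase to Mdm2, read 13.42, 13.41, 13.50 and 13.22 in control muscles. It read 13.70, 13.50, 13.58 and 13.58 after spermine oxidase. Spermine oxidase replicates 1, 3 and 4 lay above all controls, and replicate 2 lay just under control replicate 3. The log2 difference was 0.20 ± 0.07, 1.15-fold, with a 95% interval from 0.051 to 0.36 and an adjusted p = 0.325. The dimmer probes ILMN_2710229 and ILMN_2702233 gave 0.14 ± 0.11 and 0.31 ± 0.16, both lowest in control replicate 4 at 10.89 and 10.14. Without control replicate 4 and spermine oxidase replicate 1, the lowest and the highest muscle on the brightest probe, that probe differed by 0.11.

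Trp53inp1, a p53-induced stress protein that also acts in autophagy, had the smallest p of the 8 genes in limma without a trend, and a small difference. It read 9.68, 9.68, 9.69 and 9.73 in control muscles. It read 9.54, 9.50, 9.53 and 9.60 after spermine oxidase. All spermine oxidase muscles lay below all controls, which 2.51% of all genes did in this direction. It was the 1 gene of the 8 whose groups did not overlap, against 6.18% of all genes in either direction. The log2 difference was -0.15 ± 0.03, 1.11-fold lower, with a 95% interval from -0.21 to -0.094, an unadjusted p = 0.000378 and an adjusted p = 0.179. Its rank by p was 31 of 16593. That p rests on the variance model: with an intensity trend and a robust prior the standard error was 0.063 and the unadjusted p = 0.0284, above those of Cdkn1a, Gadd45b and Ccng1, and with background subtracted the unadjusted p = 0.0443, above those of Cdkn1a and Gadd45b. With the replicate number as a block, which no label supports as a pairing, the limma adjusted p of the brightest probe was 0.043. The second probe, ILMN_2971479, closer to the floor at 8.54, did not show the difference (0.012 ± 0.041).

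**Figure D2:**
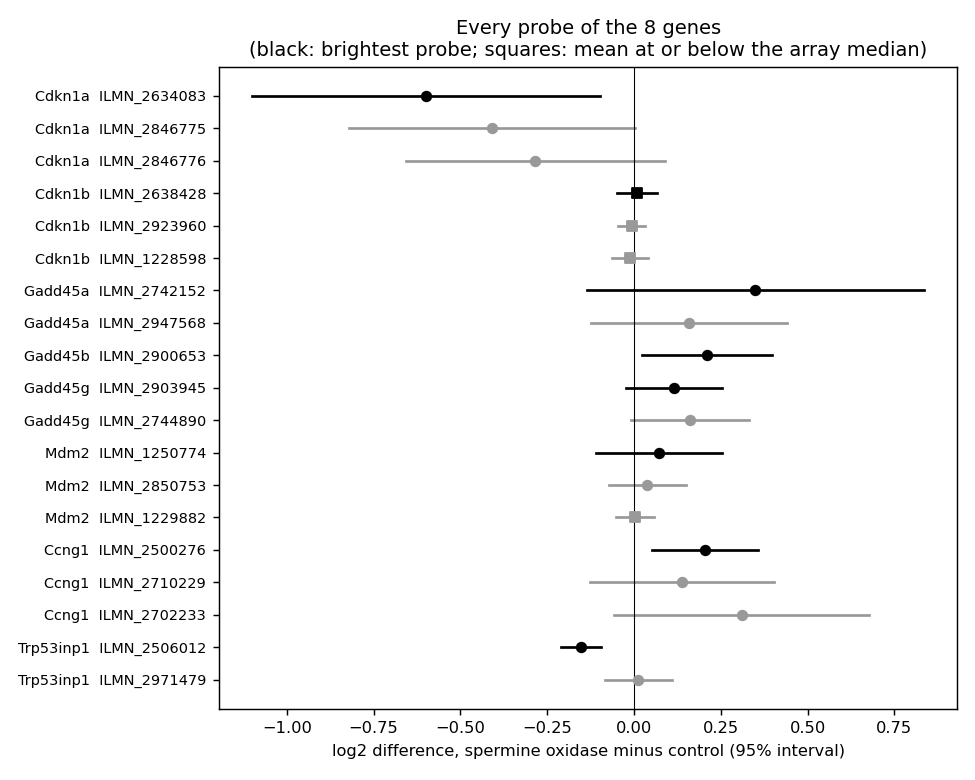
Log2 difference, spermine oxidase minus control, with its 95% interval from limma over all probes, for each of the 19 probes (black, brightest probe of a gene; grey, dimmer probes; squares, probes at or below the array median). All 3 Cdkn1a probes lie below 0 and the dimmer ones closer to it, while the second Trp53inp1 probe lies at 0.

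Differences taken by replicate number showed the same split. Gadd45b, Gadd45g and Ccng1 were higher and Trp53inp1 lower in the spermine oxidase muscle of all 4 numbers, so 4 of the 8 genes had 1 sign throughout, where 22.4% of all genes did. The 4 numbered differences of Cdkn1a were -1.06, 0.096, -0.61 and -0.82. Those of Gadd45a were -0.0078, 1.06, 0.34 and 0.0007. Number 2 was the only one with a higher Cdkn1a and the one with by far the largest Gadd45a difference. Equal numbers are not stated to mark 1 mouse, so these are descriptions.

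Within the spermine oxidase group, Cdkn1a and the brightest Smox probe ran in opposite order. Smox read 12.58, 11.56, 12.02 and 11.60 in replicates 1 to 4, and Cdkn1a was lowest in replicate 1, then 3, then 4, and highest in replicate 2. Among controls, replicate 4 had the lowest Smox, 10.17, and the highest Cdkn1a, while the other 3 did not follow that order. The Smox probes that were dim in control muscles gave another order: ILMN_2608052 read 11.87, 13.29, 12.40 and 11.53, so replicate 2, where Cdkn1a and Gadd45a were highest, was also the highest on this probe. Its control values were 9.07, 8.85, 8.90 and 8.52. Ccng1 mirrored Cdkn1a at the extremes, with its lowest value in control replicate 4 and its highest in spermine oxidase replicate 1. With 4 muscles a group no correlation was computed.

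**Figure D3:**
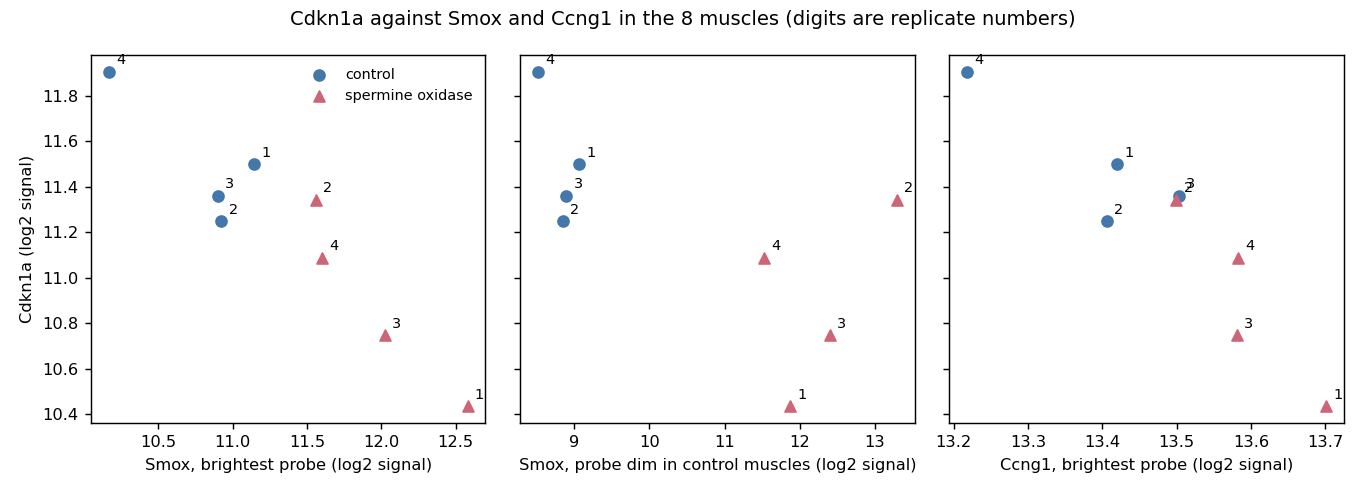
Log2 signal of Cdkn1a (y axis) against the brightest Smox probe, the Smox probe ILMN_2608052 and Ccng1 (x axes, log2 signal) in control (blue circles) and spermine oxidase muscles (red triangles), with replicate numbers. Spermine oxidase replicate 2 has the lowest value of its group on the first Smox probe and the highest on the second.

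Genes with the most similar pattern to Cdkn1a over the 8 muscles were sought among 6636 other genes in the upper 40% by signal, after centring and scaling each gene. The closest were Rab31, a Rab GTPase of vesicle transport, Ankrd10 and Fam89b, with mean distances of 0.13, 0.15 and 0.16 SD units. Rab31 read 11.21, 11.07, 11.20 and 11.53 in control and 10.72, 11.14, 10.87 and 11.04 in spermine oxidase muscles, and so shares the high control replicate 4 and the low spermine oxidase replicates 1 and 3. Closest to Gadd45a were Khdrbs1, an RNA-binding protein, Cep89, a centrosomal protein, and Mocs1, an enzyme of molybdenum cofactor synthesis, at 0.25, 0.34 and 0.38. Each of these had its highest value in spermine oxidase replicate 2, with small differences between the groups of 0.034, 0.013 and 0.028.

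Other p53 target genes went both ways. Of 31 measured, 16 were higher and 15 lower with a median difference of 0.0022, 2 were higher and 1 lower at an unadjusted p under 0.05, a share close to the 11% of all genes, and none passed when adjusted. Tigar, which slows glycolysis, was 0.33 ± 0.10 higher without overlap, at 8.38 ± 0.07 in control and 8.71 ± 0.20 in spermine oxidase muscles (SD, n = 4; adjusted p = 0.287). Rprm, a G2 arrest gene, and Pmaip1, the apoptosis gene Noxa, lay below and just above the array median with differences of 0.083 ± 0.027 and -0.082 ± 0.034. Of 10 measured regulators of p53, 1 was lower at an unadjusted p under 0.05. This was Trp53bp1, a DNA break response protein, with a difference of -0.24 ± 0.09 and an adjusted p = 0.383, while its dimmer probe gave 0.059. Trp53 and Bax were not analysed here.

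Among 4 other cyclin-dependent kinase inhibitors, Cdkn1c, the imprinted gene of p57, which belongs to the same family as p21 and p27, had the largest difference. It read 12.98, 12.91, 12.66 and 13.75 in control muscles. It read 12.09, 12.05, 11.77 and 12.90 after spermine oxidase. The groups overlapped through spermine oxidase replicate 4, and replicate 4 was the highest muscle in both groups. The difference was -0.87 ± 0.30 with a 95% interval from -1.57 to -0.18 and an adjusted p = 0.358. Cdkn2b and Cdkn2d, inhibitors of CDK4 and CDK6, differed by 0.011 ± 0.030 and -0.073 ± 0.053.

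Partners of p21 and p27 were lower in 12 of 16 genes with a median difference of -0.051, and 3 of them were lower and none higher at an unadjusted p under 0.05, where 50.8% of all genes were lower and 4.72% lower at that p. These were Ccnd3, the cyclin D3 of differentiating muscle (-0.33 ± 0.11, adjusted p = 0.321), E2f1, a transcription factor of S phase entry (-0.16 ± 0.06, adjusted p = 0.369), and Skp2, the ligase subunit that removes p27 (-0.11 ± 0.03, adjusted p = 0.230), which lay near the floor. Of the 16 measured partners, 3 separated the groups without overlap in this direction, against 2.51% of all genes. They were these same 3, and as a small p and separated groups go together, this is no further support. The dimmer Ccnd3 probe ILMN_1246473, with a mean of 8.63, differed by only -0.040 ± 0.033, and the other dimmer probes of Ccnd3 and Skp2, below the array median, by -0.030 to 0.0070. Of 5 measured partners of the Gadd45 proteins, 3 were higher and 1 lower at an unadjusted p under 0.05, against 6.33% and 4.72% of all genes. The p38 kinases' activators Map2k6 (0.29 ± 0.07, higher on all 3 of its probes) and Map2k3 (0.29 ± 0.11) and the p38 gene Mapk14, named after its value was seen (0.18 ± 0.07), were higher, and Cdk1, the mitotic kinase, was lower (-0.38 ± 0.10), with adjusted p-values of 0.216, 0.391, 0.425 and 0.268. Dimmer Cdk1 probes at the floor differed by -0.017 and 0.031. The remaining partner, Map3k4, the kinase that the Gadd45 proteins activate, was also lower, without overlap but near the floor at a mean of 8.27. Its difference was -0.041 ± 0.018 (limma unadjusted p = 0.053, adjusted p = 0.459).

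**Figure D4:**
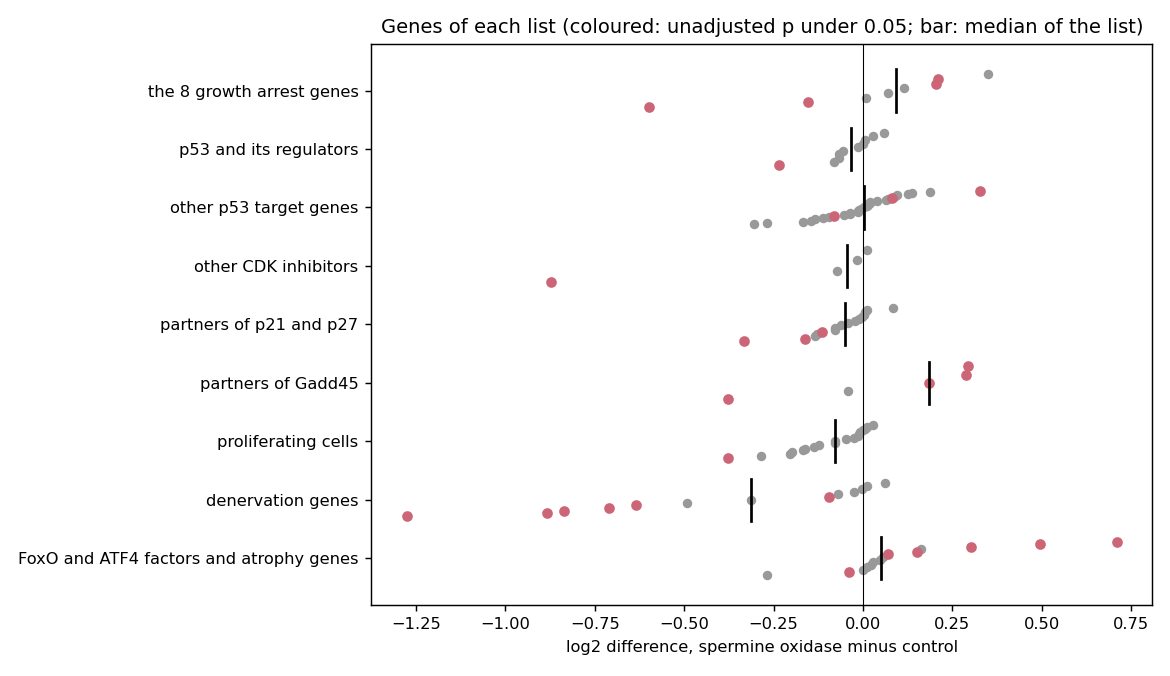
Log2 difference, spermine oxidase minus control, of each measured gene (points) in the growth arrest genes and 8 related lists, coloured where the unadjusted limma p was under 0.05, with the list's median as a bar. The other p53 targets centre on 0, at a median of 0.0022, and the denervation genes lie lowest, at a median of -0.31.

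Marker genes of other states and cell types also read lower or higher beside Cdkn1a, and their counts are to be read against 50.8% of all genes lower, 4.72% lower at an unadjusted p under 0.05 and 6.33% higher at that p. Of 13 measured denervation genes 11 were lower, with 6 at an unadjusted p under 0.05 and a median of -0.31, among them Chrng, the fetal acetylcholine receptor subunit (-0.88 ± 0.24), Sln, the calcium pump regulator sarcolipin (-0.84 ± 0.23), and the adhesion molecule Ncam1 (-0.63 ± 0.16), with adjusted p-values of 0.254 to 0.272. Their mean linear signal, the average over the list of the signals before the log, was 4395 to 5606 in control and 1872 to 4015 in spermine oxidase muscles. Myh8, named after its values were seen, gave the largest part of that mean. It read 14.90 in control and 13.62 in spermine oxidase muscles (-1.28 ± 0.38, adjusted p = 0.292). In the same list Musk and Hdac4 differed by only -0.070 and 0.061. Chrnd, Dach2 and Hdac9 differed by -0.024 to 0.011, but lay at or below the array median, where a difference is understated. Proliferation genes, which include Cdk1 and Pcna of the partner lists above, were lower in 15 of 19. Of these genes only Cdk1 was lower at an unadjusted limma p under 0.05. Their mean linear signals were 430 to 514 and 389 to 469, and 4 of the 19 were at or below the array median. Markers of satellite cells and myoblasts, which share Myog with the denervation genes, were lower in 7 of 9, 2 of them at that p. Their mean linear signals were 632 to 713 and 500.5 to 591, and the stem cell factors Pax7 and Myf5 lay at the floor in both groups. Vcam1 (-0.43 ± 0.17), Itga7 (-0.29 ± 0.09) and Megf10 (-0.36 ± 0.16) had the smallest p among them.

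Macrophage markers were lower in 7 of 10, with mean linear signals of 3468 to 5247 and 2267 to 3607, led by Ms4a7 (-0.71 ± 0.19) and C1qa (-0.43 ± 0.14), while Cd163 was higher (0.22 ± 0.04). At an unadjusted limma p under 0.05, 2 were lower and 1 was higher. Fibroblast markers were lower in 8 of 9, 0 of them at that p, with mean linear signals of 3821 to 5074 and 3369 to 4528. Endothelial markers were higher in 9 of 9, 4 of them at that p, with 1220 to 1398 and 1319 to 1604. None of the macrophage and fibroblast markers lay at or below the array median, and 1 endothelial marker did. Adipocyte markers were higher in 6 of 8, 3 of them at that p, at 1484 to 2221 and 1762 to 2162, with Adipoq, the adiponectin gene, at 0.54 ± 0.16. Most of that signal came from Lpl, lipoprotein lipase, which muscle also expresses (13.44 in control and 13.59 in spermine oxidase muscles), and 4 of the 8 lay at or below the array median. Schwann cell markers were higher in 3 of 4, 1 of them at that p, at 643 to 758 and 642 to 849. Most of that signal came from Pmp22 (10.67 in control and 10.83 in spermine oxidase muscles), and 2 of the 4 lay at or below the array median. The myelin gene Mbp differed by 0.33 ± 0.13 and a dimmer Mbp probe by -0.14. Blood cell markers were higher in 4 of 7, 1 of them at that p, with mean linear signals of 991 to 1431 and 1326 to 1982. Most of that signal came from the globin gene Hba-a1, which differed by 0.71 ± 0.21, and 2 of the 7 lay at or below the array median. In whole muscle, fewer cells of a type and less RNA per cell cannot be told apart, and the part of these cells in the Cdkn1a signal was not tested. Fibre markers were higher in 7 of 9, 2 of them at an unadjusted limma p under 0.05, with the fast myosin gene Myh4 at 0.34 ± 0.11. Of 14 FoxO, ATF4 and atrophy genes 11 were higher, 5 of them at that p, and 1 was lower at that p. Of the 14, 5 lay at or below the array median. Among the higher were Trim63, the ubiquitin ligase MuRF1 (0.50 ± 0.13, adjusted p = 0.256), and Atf4 (0.30 ± 0.08, adjusted p = 0.272), the factor upstream of Gadd45a in mouse muscle. The ATF4-induced genes of that list, named after their values were seen, read lower, Ddit3 by -0.27 (adjusted p = 0.459) and Trib3, near the floor, by -0.040 (adjusted p = 0.427).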

How the data were processed

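The authors deposited 1 table of log2 signals for 8 arrays, whose scale was read from the values (8.10 to 15.29). Between arrays, values of equal rank differed by at most 0.155, so the deposited log2 signals were already normalized. How this was done, and with which software, is not given in the sources used here. For arrays, their number limits the precision. GEO's annotation of the platform gave the gene names: 23978 of 25697 had 1 gene, 0 several and 1719 none, and the Entrez identifiers of 23962 were found in RefSeq's gene table. The brightest probe by 8-array mean stood for each gene, with no filter. The test was limma's moderated linear model (limma 3.58.1 and R 4.3.3, two-sided, Benjamini-Hochberg over 16593 genes). Members and lists were chosen with earlier results of these data known. Named were the 8 genes, Smox, up to 3 genes of smallest p per list and 3 most like Cdkn1a and Gadd45a. On simulated data for this comparison with 16593 genes, 74.4% of genes changed by 0.5 and 94.4% of those changed by 1 log2 unit were recovered. Changes were simulated only in genes above the median signal, with independent normal noise for each gene. The shares recovered therefore do not give the power on the real arrays. There Smox, at a difference of 1.16, had a limma adjusted p of 0.233 and did not pass. Deviations from the group means of equal-numbered muscles correlated at 0.60, -0.14, 0.67 and 0.60 for numbers 1 to 4, and at 0.37 at most for unequal numbers. Numbers 1, 3 and 4 thus deviated together and number 2 did not. With 4 muscles a group, these correlations cannot settle whether equal numbers mark 1 mouse. As no label states a pairing, limma was fitted without a block. Alternatives were other normalizations, a filter on dim probes, probe means, every probe, other variance models, array weights (statmod 1.5.0), background subtraction, the replicate block and leaving out muscles. Plots were drawn with matplotlib 3.10.9.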

Additional observations from a re-analysis of the deposited data

Results flagged for a closer look

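In 154 groups of 4 muscles, taken over the named genes and all probes of the 8 genes and Smox, 14 had 1 muscle far from the other 3 by Dixon's test, which chance alone flags in about 5% of groups. Among the 8 genes, Gadd45a stood at 11.73 in spermine oxidase replicate 2 with the nearest muscle at 10.91, and its second probe ILMN_2947568 at 10.75 with the nearest at 10.25. Gadd45g stood at 11.80 in spermine oxidase replicate 3, with the nearest at 11.62. Cdkn1b stood at 8.35 in control replicate 1, at the floor. The dimmest Cdkn1a probe, ILMN_2846776, stood at 9.64 in control replicate 4, with the nearest at 9.23. The Ccng1 probe ILMN_2710229 stood lowest at 10.89 in control replicate 4 and at 11.28 in spermine oxidase replicate 2, and ILMN_2702233 at 10.56 in spermine oxidase replicate 2. Of the other named genes, Fap (9.84) and Pmp22 (10.93) stood highest in control replicate 4. Trim63 (9.71) and Actn3 (14.84) stood lowest in spermine oxidase replicate 4, and Cdkn2d (9.04) and Cdh19 (8.18) lowest in spermine oxidase replicate 3.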

How the results depend on the processing

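With the replicate number as a block, which no label supports as a pairing, 266 genes and 1 of the 8 genes passed the adjusted threshold. That gene was Trp53inp1 (adjusted p = 0.043), and of the other genes named Smox (1.16, adjusted p = 0.041), Cdkn1c (0.00138), Megf10 (0.0198), Cdk1 (0.0274), Trim63 (0.0284), Ncam1 (0.0409), the fibroblast marker Lum (0.0430) and Ms4a7 (0.0442) also passed. So did Myog (0.0241) and Myod1 (0.0430), from the list of satellite cell and myoblast markers. Of the 4 controls, 3 correlated best with the spermine oxidase muscle of their own number. An intensity trend with a robust prior gave 8 genes, and leaving out single muscles gave 0 to 14 genes, the most without spermine oxidase replicate 2, and 0 of the 8. The Smox difference was 0.95 to 1.28 without single muscles 0.74 without control replicate 4 and spermine oxidase replicate 1, 2.48 with the mean of its probes, and 3.44, 3.34 and 3.30 on its 3 probes dim in control muscles. Over the 19 alternatives with 1 value a gene, Cdkn1a kept its direction (-0.75 to -0.31, adjusted p 0.207 to 0.767; -0.28 on its dimmest probe), as did Gadd45a, Gadd45b, Gadd45g, Mdm2, Ccng1 and Trp53inp1, which was -0.070 with the mean of its probes. Signs turned for Cdkn1b, at the floor (-0.0029 with the mean of its probes, -0.0021 to 0.026 without single muscles, -0.0069 and -0.011 on its other probes), and with every probe on its own for the second Trp53inp1 probe (0.012). The causes were not tested. The median difference over all genes was -0.0016 to 0.0005 with other normalizations and 0.027 with background subtracted. Signals near the floor limit what can be read for Cdkn1b and the dimmer probes.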
